A study of Mus musculus with 22 samples.

Results

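The genes described here are the ERK feedback genes, a set of 10 of the 47069 genes in the deposited tables, taken by gene name: the phosphatase genes Dusp4, Dusp5 and Dusp6, the Sprouty genes Spry1, Spry2 and Spry4, the Spred genes Spred1 and Spred2, and the transcription factor genes Etv4 and Etv5. Growth factor receptors switch on the kinase ERK through RAS, RAF and MEK, and active ERK raises the transcription of genes whose products damp the same pathway. DUSP4, DUSP5 and DUSP6 are dual-specificity phosphatases that take the activating phosphates off ERK, DUSP4 and DUSP5 in the nucleus and DUSP6 in the cytoplasm. Sprouty and SPRED proteins act upstream and restrain the step between receptor and RAF, and ETV4 and ETV5 are ETS factors of the PEA3 family whose genes are induced by the pathway. In bone marrow ERK is activated downstream of KIT, FLT3 and cytokine receptors, and the mRNA of these genes is widely used as a readout of that activity.

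The libraries were made from whole bone marrow, 22 in all, and hold poly(A)-selected RNA. LSK cells, a marrow fraction rich in blood stem and progenitor cells, were taken from Cas9 knock-in mice, given single guide RNAs and transplanted 24 hours later into C57BL/6 mice irradiated with 7 Gy. The groups were sgEzh2 + sgRunx1 (4 libraries), sgBcor + sgRunx1 (3), sgBcor + sgLuc (3), sgEzh2 + sgLuc (3), sgRunx1 + sgLuc (3) and sgLuc alone (6), and all of them carried Cas9. The control guide sgLuc, named for luciferase, was also the partner guide of each single-gene group. Ezh2 encodes the histone methyltransferase of Polycomb complex PRC2, Bcor a corepressor of a variant PRC1 complex and Runx1 a transcription factor of blood development. Marrow was collected at signs of leukaemia or at 6 months, and the labels do not say which held for which sample. The labels also give neither the exons cut nor the share of edited cells, and host cells that survived irradiation can be part of whole marrow.

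Library totals ran from 30023722 to 57175449 counts. Reads of 4 Y-linked genes were found in 6 of 6 sgLuc libraries and in 0 of the 16 others, so the sex of the cells and the guides cannot be told apart wherever sgLuc is compared, the interactions included. The third library of sgEzh2 + sgLuc stood apart: its 12 neutrophil markers summed to 270.5 CPM (counts scaled to library size), against at least 39333 in each of the other libraries, and its 12 T and NK cell markers to 3047 CPM, against 3.74 to 234 CPM in the others. Results that rest on it are given with and without it. The mRNA of Ezh2 was lower where its guide was used (sgEzh2 + sgRunx1 55.1 ± 15.0 CPM, sgEzh2 + sgLuc 62.6 ± 6.97 CPM, sgLuc 99.8 ± 8.19 CPM; SD), that of Runx1 was not called lower where its own guide was used, and that of Bcor was higher in sgBcor + sgLuc (146 ± 47.8 CPM) than in sgLuc (60.1 ± 5.85 CPM).

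Compared per length of transcript, in the deposited FPKM (read count divided by library total and gene length), Dusp6 was the most abundant of the set, with a median of 59.0 FPKM over the 22 libraries. Dusp5 followed at 15.2, Spry2 at 8.59, Spred2 at 7.73, Spred1 at 4.00, Etv5 at 3.77 and Spry1 at 1.33 FPKM. Dusp4 had a median of 0.446 FPKM, and Spry4 (0.0235 FPKM) and Etv4 (0.0200 FPKM) were close to the limit of detection, with at most 27 and 50 counts in any library. The summed FPKM of the set therefore mostly follows Dusp6 and Dusp5. Its group medians were 72.3 in sgEzh2 + sgRunx1, 102 in sgBcor + sgRunx1, 170 in sgBcor + sgLuc, 99.2 in sgEzh2 + sgLuc, 118 in sgRunx1 + sgLuc and 91.8 in sgLuc, and the 3 libraries of sgBcor + sgLuc (142 to 186) lay above all others (50.3 to 133).

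**Figure D1:**
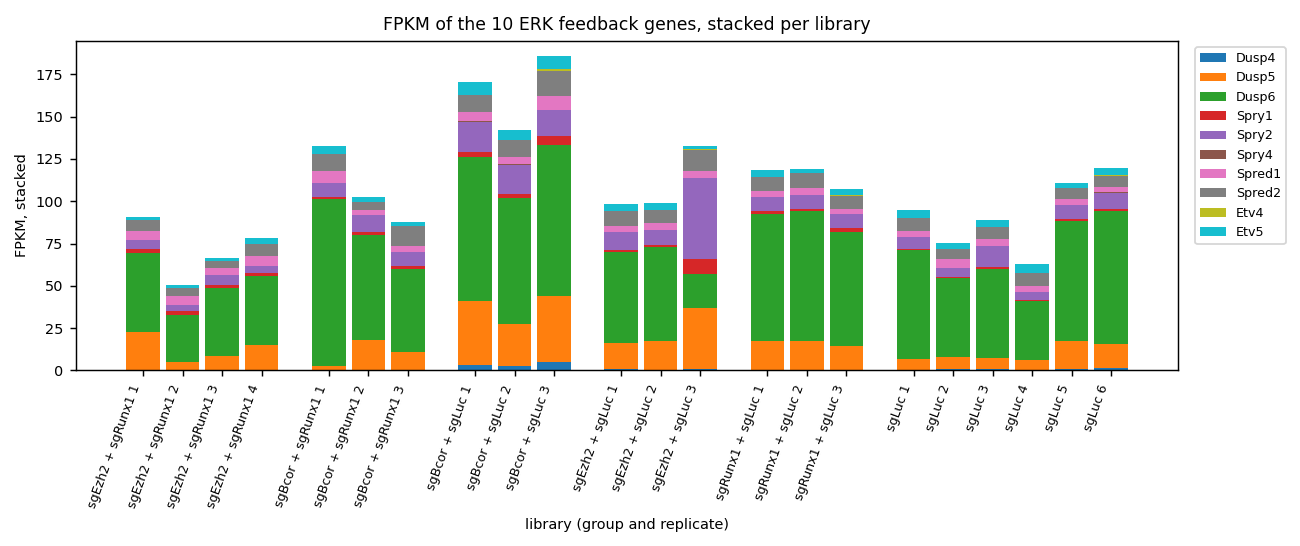
FPKM of the 10 genes stacked for each library (y axis, linear from 0; x axis, group and replicate). Dusp6 is the tallest segment in 21 of the 22 columns, the columns of sgBcor + sgLuc are the tallest (142 to 186), and the third column of sgEzh2 + sgLuc is led by Spry2.

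The promoter windows of Dusp5 and Spry2 are printed because they held a match to a motif searched, and that of Spry1 as a window with none. The CPM of these 3 genes in sgBcor + sgLuc lay above every sgLuc library, as did that of Spred2 and Etv5, whose windows are not printed. RefSeq windows (GRCm38.p6, 250 bases before to 50 after the annotated start, on the strand of the gene) were matched for 7 of the 10 genes: Dusp5, Dusp6, Spry1, Spry2, Spred1, Spred2 and Etv5. Capitals mark matches, on either strand, to the motifs searched: an ETS core (CCGGAA), the cAMP response element (TGACGTCA), an AP-1 site (TGANTCA), a RUNX site (TGTGGT) and the CArG box, which was added to the search after the sequences had been seen. Of 32851 RefSeq windows of this length, 14.9% held the ETS core, 1.79% the cAMP element, 7.81% the AP-1 site, 16.8% the RUNX site and 1.63% a CArG box. The Dusp5 window (chr19:53528895-53529194, plus strand) held 2 CArG boxes side by side, the binding sequence of serum response factor, which acts with ERK-activated ETS partners. The Spry2 window (chr14:105896770-105897069, minus strand) held 1 ETS core close to its 3′ end, and the Spry1 window (chr3:37639697-37639996, plus strand) held no match. The windows of Dusp6, Spred1, Spred2 and Etv5 (which has 2 windows) held no match either. A match is a run of letters and was not tested for binding.
Dusp5: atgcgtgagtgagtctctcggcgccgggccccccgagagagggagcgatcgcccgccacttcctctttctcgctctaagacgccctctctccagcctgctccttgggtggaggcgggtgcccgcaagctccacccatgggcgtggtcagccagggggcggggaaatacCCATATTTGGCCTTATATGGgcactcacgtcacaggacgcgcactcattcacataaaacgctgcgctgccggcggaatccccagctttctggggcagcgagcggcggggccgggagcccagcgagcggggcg
Spry1: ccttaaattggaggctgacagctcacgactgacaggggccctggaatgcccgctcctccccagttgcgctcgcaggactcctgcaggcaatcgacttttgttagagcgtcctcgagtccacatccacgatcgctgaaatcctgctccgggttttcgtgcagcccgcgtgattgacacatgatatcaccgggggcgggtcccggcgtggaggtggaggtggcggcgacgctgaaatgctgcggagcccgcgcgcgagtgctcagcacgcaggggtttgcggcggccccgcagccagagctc
Spry2: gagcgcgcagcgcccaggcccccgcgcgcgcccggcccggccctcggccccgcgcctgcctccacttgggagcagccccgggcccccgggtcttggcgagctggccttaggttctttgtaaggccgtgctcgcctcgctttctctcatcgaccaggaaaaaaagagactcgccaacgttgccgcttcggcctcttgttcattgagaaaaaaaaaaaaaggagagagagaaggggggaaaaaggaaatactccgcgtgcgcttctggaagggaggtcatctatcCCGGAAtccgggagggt

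**Figure D2:**
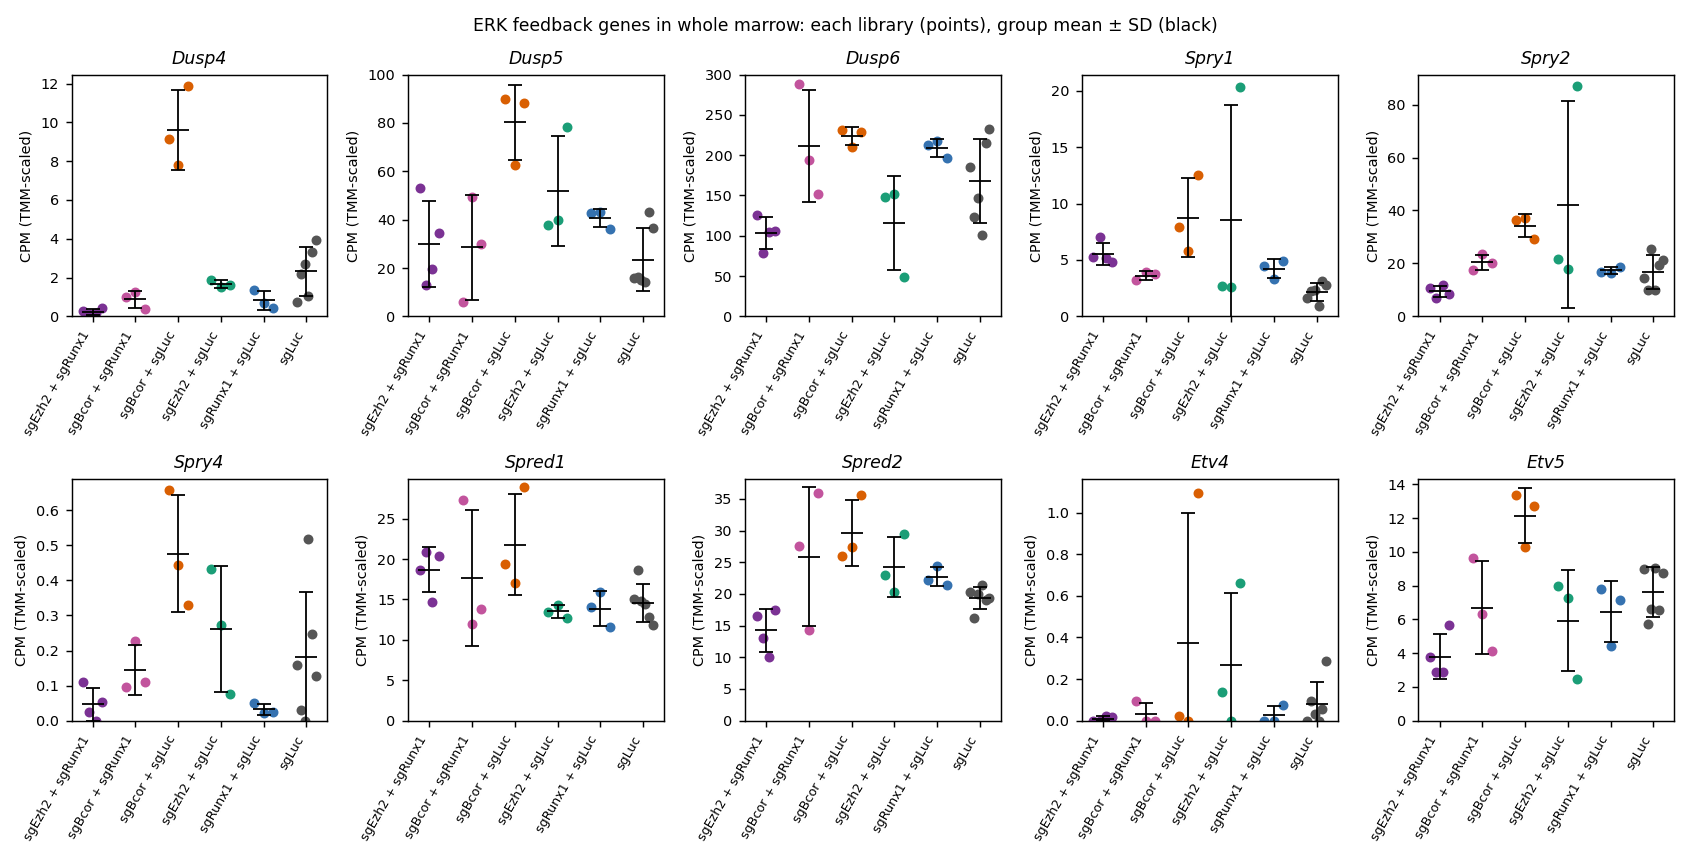
CPM scaled by TMM (y axis, linear, a scale for each gene) of the 10 genes in each library (points), with group mean ± SD (black, the lower arm cut at 0), for the 6 groups on the x axis. In the Dusp4 panel the 3 libraries of sgBcor + sgLuc (7.80 to 11.9 CPM) stand above all others, and in the Spry1 and Spry2 panels 1 library of sgEzh2 + sgLuc (20.3 and 87.2 CPM) stands above all others.

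Dusp4 (ENSMUSG00000031530, chromosome 8, 34807297 to 34819894, plus strand, all gene positions on GRCm38), the phosphatase of nuclear ERK, varied most over the libraries among the 8 genes with reads in each of them: its CPM spanned 123-fold, on 4 to 542 counts. It stood at 0.275, 0.0968, 0.170 and 0.453 CPM in sgEzh2 + sgRunx1. In sgBcor + sgRunx1 it stood at 1.02, 1.25 and 0.389 CPM. All 7 libraries with a pair of gene guides were thus at 1.25 CPM or below. In sgBcor + sgLuc it reached 9.17, 7.80 and 11.9 CPM, in sgEzh2 + sgLuc 1.89, 1.49 and 1.64 CPM, and in sgRunx1 + sgLuc 1.35, 0.694 and 0.414 CPM. The sgLuc libraries ran from 0.725 to 3.93 CPM with a median of 2.43 CPM. Every one of the 10 libraries with the Runx1 guide (at most 1.35 CPM) lay below every one of the 6 libraries with the Ezh2 or Bcor guide and no Runx1 guide (at least 1.49 CPM), while the sgLuc libraries lay on both sides of that gap. This split was drawn from the values and not tested, and the share of all genes split in this way was not computed. Between sgBcor + sgRunx1 and sgBcor + sgLuc alone, the libraries did not overlap in 31.2% of all genes. Between sgEzh2 + sgLuc and sgRunx1 + sgLuc they did not in 33.9%. The summed T and NK cell markers split the same libraries, at most 26.9 CPM against at least 95.4 CPM. Across the gap, Dusp4 was not called in sgEzh2 + sgLuc against sgRunx1 + sgLuc (log2 fold change 1.03, edgeR FDR 0.247).

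By group mean the order of Dusp4, from the highest, was sgBcor + sgLuc, sgLuc, sgEzh2 + sgLuc, sgBcor + sgRunx1, sgRunx1 + sgLuc and sgEzh2 + sgRunx1. The highest group differed from the next (log2 fold change of sgBcor + sgLuc against sgLuc 2.05, SE 0.479, edgeR FDR 0.0253), a call that missed the threshold without sgBcor + sgLuc replicate 1 (2.10, edgeR FDR 0.0737) or replicate 3 (1.87, edgeR FDR 0.137). The neighbours sgEzh2 + sgLuc and sgLuc did not differ beyond their spread (−0.47, 95% interval −1.54 to 0.61), nor did sgBcor + sgRunx1 and sgRunx1 + sgLuc (0.11, −1.14 to 1.37), and sgEzh2 + sgRunx1 against sgRunx1 + sgLuc missed the threshold (−1.69, −2.90 to −0.47, edgeR FDR 0.232). The groups sgEzh2 + sgLuc (1.49 to 1.89 CPM) and sgBcor + sgRunx1 (0.389 to 1.25 CPM), next to each other in this order, were not tested against each other and did not overlap. Dusp4 was called lower in each double than in the single that shares its Polycomb guide. It averaged 0.249 ± 0.155 CPM in sgEzh2 + sgRunx1 (SD, n = 4) and 1.68 ± 0.202 CPM in sgEzh2 + sgLuc (n = 3), a log2 fold change of −2.71 (SE 0.579, edgeR FDR 0.00448). It averaged 0.886 ± 0.444 CPM in sgBcor + sgRunx1 and 9.62 ± 2.07 CPM in sgBcor + sgLuc (SD, n = 3 each), a log2 fold change of −3.43 (SE 0.637, edgeR FDR 0.00235). Dusp4 was also lower in sgEzh2 + sgRunx1 than in sgLuc (−3.18, SE 0.544, edgeR FDR 0.00089) and higher in sgBcor + sgLuc than in sgRunx1 + sgLuc (3.55, SE 0.640, edgeR FDR 0.00372). The last 4 of these calls held under each of the 13 to 17 alternative settings tried for them, with edgeR or DESeq2 FDR of at most 0.0424. Against sgLuc, sgRunx1 + sgLuc (−1.50, edgeR FDR 0.101) and sgBcor + sgRunx1 (−1.38, edgeR FDR 0.0954) missed the threshold in edgeR and passed it in DESeq2 (FDR 0.0344 and 0.0428). The same held for sgBcor + sgLuc against sgEzh2 + sgLuc (2.52, edgeR FDR 0.0693, DESeq2 FDR 0.00157).

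**Figure D3:**
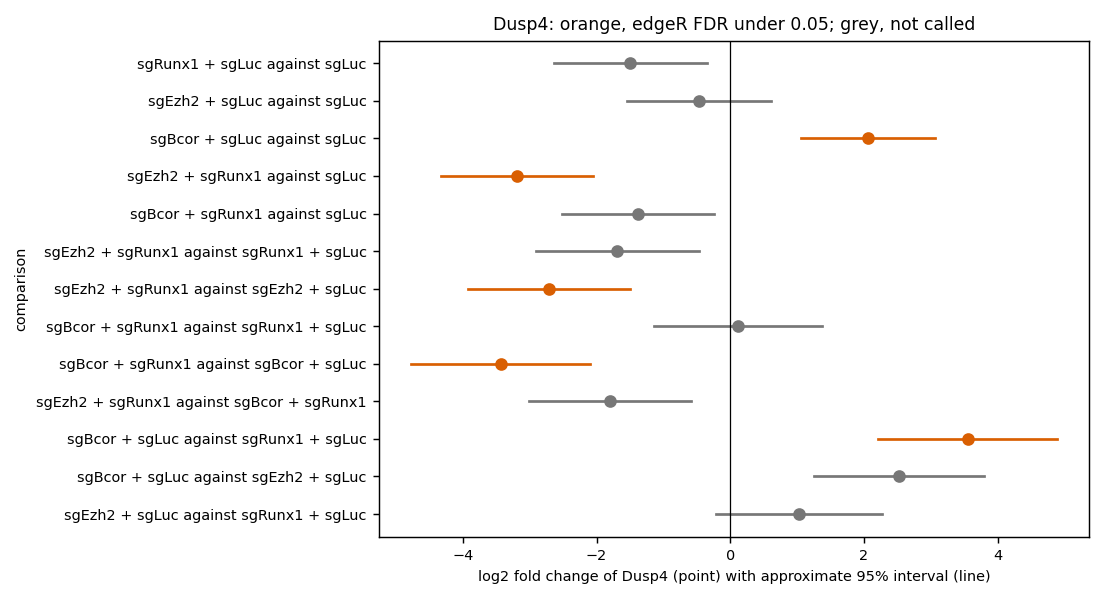
Log2 fold change of Dusp4 (x axis; point, with approximate 95% interval as a line) in the 13 comparisons of groups (y axis; the group named first is set against the group named second), orange where edgeR FDR is under 0.05. Orange points lie at −3.43, −3.18 and −2.71 on the left and at 2.05 and 3.55 on the right.

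Marker sums of other cells also differed between the groups, and only in part as Dusp4 did. The 12 B cell markers summed to 31.3 to 77.5 CPM in sgEzh2 + sgRunx1, 25.1 to 60.2 CPM in sgBcor + sgRunx1, 1753, 91.5 and 3036 CPM in the replicates of sgBcor + sgLuc, 1204 to 1852 CPM in sgEzh2 + sgLuc, 36.2 to 72.8 CPM in sgRunx1 + sgLuc and 313 to 948 CPM in sgLuc. In sgBcor + sgRunx1 12 of the 12 were called lower than in sgBcor + sgLuc, where 8.77% of all genes were called lower. In sgEzh2 + sgRunx1 11 of 12 were called lower than in sgEzh2 + sgLuc, where 8.64% of all genes were. The second count was not repeated without sgEzh2 + sgLuc replicate 3. The sums of sgBcor + sgLuc and sgLuc overlapped. Up to 3 of the 12, among them Ms4a1, Pax5, Ebf1 and Rag1, were at 0 in 3 libraries of sgEzh2 + sgRunx1, and none in any library of the other groups. Replicate 2 of sgBcor + sgLuc had 91.5 CPM of B cell markers and 7.80 CPM of Dusp4, and the 3 libraries of sgEzh2 + sgLuc had at least 1204 CPM of these markers and at most 1.89 CPM of Dusp4. The 12 erythroid markers summed to 364 to 452 CPM in sgBcor + sgLuc and 120 to 349 CPM in all other libraries. The part of these cells in the Dusp4 level was not tested. In whole marrow, fewer cells of a type and less RNA per cell cannot be told apart.

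**Figure D4:**
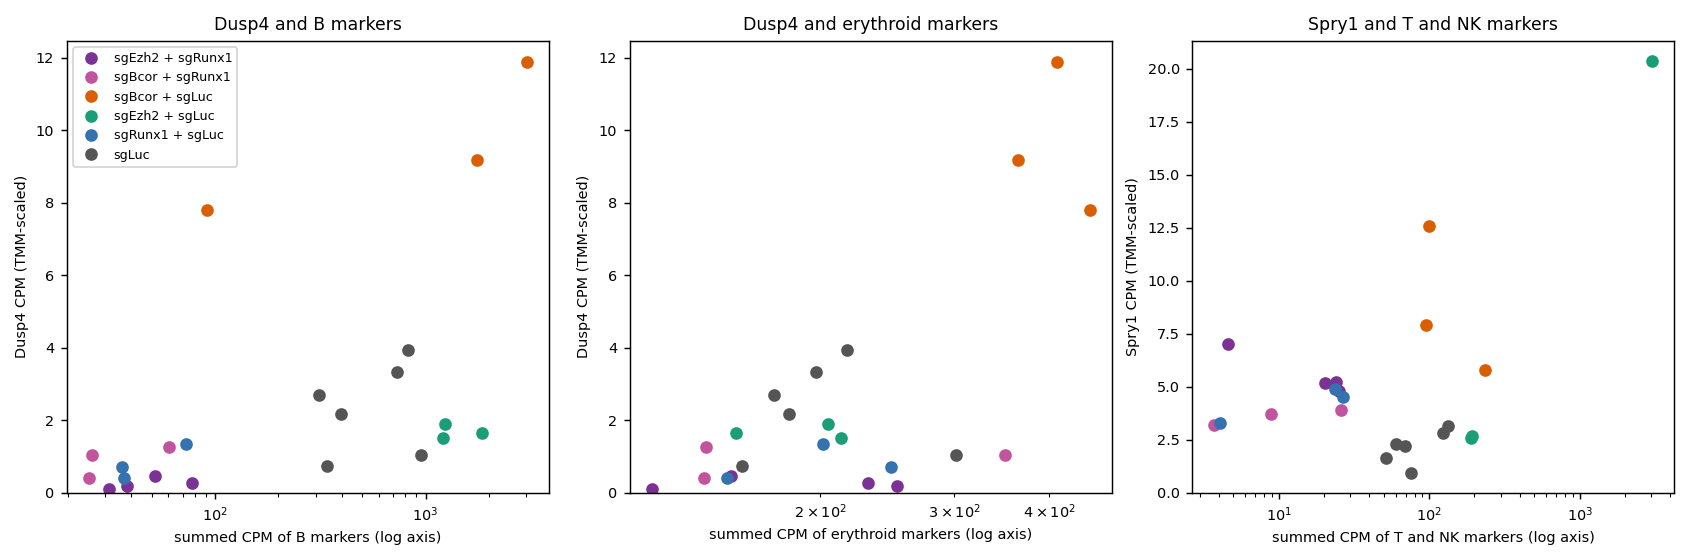
Each point is 1 library, coloured by group. Dusp4 CPM is plotted against the summed CPM of 12 B cell markers (left) and of 12 erythroid markers (middle), and Spry1 CPM against the summed CPM of 12 T and NK cell markers (right), with log x axes and linear y axes. The orange point (sgBcor + sgLuc) at 91.5 CPM of B cell markers has 7.80 CPM of Dusp4, and the green point (sgEzh2 + sgLuc) at 3047 CPM of T and NK cell markers has the highest Spry1 level, 20.3 CPM.

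Dusp5 (ENSMUSG00000034765, chromosome 19, 53529109 to 53542431, plus strand), the other nuclear phosphatase, varied widely within groups. It stood at 53.0, 13.1, 19.6 and 34.5 CPM in sgEzh2 + sgRunx1 and at 6.02, 49.4 and 30.1 CPM in sgBcor + sgRunx1. Among the singles, sgBcor + sgLuc libraries had 89.7, 62.5 and 88.4 CPM, sgEzh2 + sgLuc libraries 37.9, 39.7 and 78.2 CPM, and sgRunx1 + sgLuc libraries 42.6, 43.0 and 36.3 CPM. Levels in sgLuc ran from 14.1 to 43.3 CPM (median 16.0), with replicates 1 to 4 at 14.1 to 16.2 CPM and replicates 5 and 6 at 43.3 and 36.5 CPM. The sgBcor + sgLuc libraries lay above all libraries of sgLuc, of sgRunx1 + sgLuc and of both doubles, and 1 library of sgEzh2 + sgLuc reached into their range. No comparison of Dusp5 passed the threshold: the nearest was sgBcor + sgLuc against sgLuc (log2 fold change 1.77, 95% interval 0.72 to 2.82, edgeR FDR 0.0596), which passed without sgEzh2 + sgLuc replicate 3 in the fit (1.77, edgeR FDR 0.0442) and in DESeq2 (FDR 0.0139).

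Dusp6 (ENSMUSG00000019960, chromosome 10, 99263231 to 99267489, plus strand), the cytoplasmic ERK phosphatase, was high in every group. It stood at 126, 78.0, 105 and 106 CPM in sgEzh2 + sgRunx1 and at 288, 195 and 152 CPM in sgBcor + sgRunx1. In sgBcor + sgLuc it stood at 231, 211 and 229 CPM, in sgEzh2 + sgLuc at 148, 151 and 48.5 CPM, and in sgRunx1 + sgLuc at 213, 217 and 197 CPM. In sgLuc the range was 101 to 233 CPM (median 166). All 4 libraries of sgEzh2 + sgRunx1 lay below all libraries of sgRunx1 + sgLuc, of sgBcor + sgRunx1 and of sgBcor + sgLuc, and within or below the range of sgLuc. No comparison passed the threshold over all libraries. Without sgEzh2 + sgLuc replicate 3, Dusp6 was lower in sgEzh2 + sgRunx1 than in sgLuc (−0.69, edgeR FDR 0.0269), than in sgRunx1 + sgLuc (−1.01, edgeR FDR 0.0278) and than in sgBcor + sgRunx1 (−1.03, edgeR FDR 0.00715), where the fits over all libraries gave edgeR FDR 0.132, 0.200 and 0.0586. DESeq2, over all libraries, called the last of these (FDR 0.0241). Markers of myeloid cells differed between the same groups. The 12 neutrophil markers summed to 39333 to 51202 CPM in sgEzh2 + sgRunx1, 72058 to 120570 CPM in sgBcor + sgRunx1, 52410 to 90689 CPM in sgBcor + sgLuc, 73604 to 80877 CPM in sgRunx1 + sgLuc and 45054 to 96045 CPM in sgLuc. The 12 monocyte and macrophage markers summed to 4025 to 4808 CPM in sgEzh2 + sgRunx1, above the 1774 to 3946 CPM in sgBcor + sgRunx1, 2019 to 3000 CPM in sgBcor + sgLuc and 3266 to 3471 CPM in sgRunx1 + sgLuc, and overlapped with the 2967 to 4138 CPM in sgLuc. The third library of sgEzh2 + sgLuc had both the lowest sums and the lowest Dusp6 level of the 22 libraries. The part of these cells in the Dusp6 level was not tested. The order of groups was not that of Dusp4: sgRunx1 + sgLuc was low in Dusp4, and its Dusp6 levels lay within the upper part of the sgLuc range.

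Spry1 (ENSMUSG00000037211, chromosome 3, 37639947 to 37644598, plus strand), a Sprouty inhibitor of RAS activation, was low in sgLuc. It stood at 5.23, 7.02, 5.15 and 4.79 CPM in sgEzh2 + sgRunx1 and at 3.19, 3.91 and 3.73 CPM in sgBcor + sgRunx1. Among the singles, sgBcor + sgLuc libraries had 7.90, 5.80 and 12.6 CPM, sgEzh2 + sgLuc libraries 2.67, 2.57 and 20.3 CPM, and sgRunx1 + sgLuc libraries 4.49, 3.29 and 4.89 CPM. The sgLuc libraries ran from 0.940 to 3.13 CPM (median 2.26). In 4 of the 5 groups with a gene guide every library lay above every sgLuc library, and in sgEzh2 + sgLuc 1 of 3 did. The calls were sgBcor + sgLuc against sgLuc (2.01 on the log2 scale, SE 0.481, edgeR FDR 0.0286) and sgEzh2 + sgLuc against sgLuc (1.97, SE 0.481, edgeR FDR 0.0184). The second rested on 1 library: without replicate 3 it was 0.26 (edgeR FDR 0.797). The first missed the threshold without sgBcor + sgLuc replicate 1 (2.09, edgeR FDR 0.0698) or 3 (1.66, edgeR FDR 0.182) and without sgLuc replicate 1 (1.94, edgeR FDR 0.0603) or 4 (1.85, edgeR FDR 0.0507). Without sgEzh2 + sgLuc replicate 3 in the fit it was 2.01 (edgeR FDR 0.000258), and Spry1 was then also higher than in sgLuc in sgEzh2 + sgRunx1 (1.35, edgeR FDR 0.00154) and in sgRunx1 + sgLuc (0.95, edgeR FDR 0.0320), but not in sgBcor + sgRunx1 (0.73, edgeR FDR 0.0792). DESeq2 called sgEzh2 + sgRunx1 over all libraries (FDR 0.0313). Markers of other cells also set sgLuc apart. The 12 basophil, mast cell and eosinophil markers summed to 84.4 to 105 CPM in sgEzh2 + sgRunx1, 104 to 135 CPM in sgBcor + sgRunx1, 150 to 395 CPM in sgBcor + sgLuc, 32.8 to 458 CPM in sgEzh2 + sgLuc, 99.7 to 124 CPM in sgRunx1 + sgLuc and 434 to 1382 CPM in sgLuc. The 8 plasma cell markers summed to 270 to 364 CPM in sgEzh2 + sgRunx1, 222 to 315 CPM in sgBcor + sgRunx1, 234 to 541 CPM in sgBcor + sgLuc, 575 to 948 CPM in sgEzh2 + sgLuc, 210 to 242 CPM in sgRunx1 + sgLuc and 573 to 4191 CPM in sgLuc. The plasma cell sums of sgEzh2 + sgLuc and 1 basophil, mast cell and eosinophil sum of that group overlapped with sgLuc. Against sgLuc, 5 of the 8 plasma cell markers were called lower in sgEzh2 + sgRunx1 (6.09% of all genes were called lower), 6 in sgBcor + sgRunx1 (9.69%), 3 in sgBcor + sgLuc (1.19%), 1 in sgEzh2 + sgLuc (1.95%) and 5 in sgRunx1 + sgLuc (5.36%). The part of these cells in the Spry1 pattern was not tested. Since all sgLuc libraries and no other libraries carried Y-linked reads, sex cannot be told apart from the guides in this pattern.

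Spry2 (ENSMUSG00000022114, chromosome 14, 105891947 to 105896819, minus strand), the more abundant Sprouty gene, ran lowest in sgEzh2 + sgRunx1. It stood there at 10.8, 6.87, 11.7 and 8.31 CPM, and at 17.5, 23.4 and 20.2 CPM in sgBcor + sgRunx1. In sgBcor + sgLuc it stood at 36.2, 37.2 and 29.2 CPM, in sgEzh2 + sgLuc at 21.7, 17.9 and 87.2 CPM, and in sgRunx1 + sgLuc at 16.8, 16.4 and 18.8 CPM. Levels in sgLuc ran from 9.95 to 25.6 CPM (median 16.8). The libraries of sgEzh2 + sgRunx1 lay below those of every other group except sgLuc, and those of sgBcor + sgLuc lay above all except the third library of sgEzh2 + sgLuc. Spry2 was lower in sgEzh2 + sgRunx1 than in sgEzh2 + sgLuc (−2.17 on the log2 scale, SE 0.422, edgeR FDR 0.00248), and the fold was smaller without the third library of sgEzh2 + sgLuc (−1.07, edgeR FDR 0.0250). In a fit to the libraries of this pair of groups alone the call ended (−2.20, edgeR FDR 0.0955). Spry2 was higher in sgEzh2 + sgLuc than in sgLuc (1.34, SE 0.373, edgeR FDR 0.0346), again through that library: without it the value was 0.24 (edgeR FDR 0.772). This call also missed the threshold without sgLuc replicate 1 (1.30, edgeR FDR 0.0682), 2 (1.21, edgeR FDR 0.0625) or 4 (1.23, edgeR FDR 0.0643). That library had reads of 12 of 12 T and NK cell markers, and its Spry1, Spry2 and T and NK cell marker levels were the highest of the 22 libraries. The T and NK cell markers summed to 4.62 to 25.1 CPM in sgEzh2 + sgRunx1, 3.74 to 25.8 CPM in sgBcor + sgRunx1, 95.4 to 234 CPM in sgBcor + sgLuc, 189 to 3047 CPM in sgEzh2 + sgLuc, 4.08 to 26.9 CPM in sgRunx1 + sgLuc and 51.8 to 134 CPM in sgLuc. In sgEzh2 + sgLuc 8 of 12 were called higher than in sgLuc, where 6.29% of all genes were called higher. This count includes the third library, at 3047 CPM against a group median of 192 CPM, and was not repeated without it. The part of T and NK cells in the Spry1 and Spry2 levels was not tested.

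Spry4 (ENSMUSG00000024427, chromosome 18, 38586247 to 38601415, minus strand), a further Sprouty inhibitor, was scarce, with 0 to 27 counts. It stood at 0.110, 0.0242, 0 and 0.0523 CPM in sgEzh2 + sgRunx1 and at 0.0952, 0.226 and 0.111 CPM in sgBcor + sgRunx1. Among the singles, sgBcor + sgLuc libraries had 0.657, 0.445 and 0.329 CPM, sgEzh2 + sgLuc libraries 0.433, 0.274 and 0.0754 CPM, and sgRunx1 + sgLuc libraries 0.0511, 0.0224 and 0.0259 CPM. In sgLuc the range was 0 to 0.519 CPM (median 0.142). The 3 libraries of sgBcor + sgLuc lay above all libraries with the Runx1 guide and overlapped with sgLuc. No comparison passed the threshold (lowest edgeR FDR 0.0693, sgBcor + sgLuc against sgRunx1 + sgLuc, log2 fold change 3.74). The filter on low counts kept Spry4 through its highest libraries, those of sgBcor + sgLuc among them, so a call of Spry4 in that group is not used here. At this depth smaller differences of Spry4 were not detectable.

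Spred1 (ENSMUSG00000027351, chromosome 2, 117121374 to 117182279, plus strand), which brings the RAS inhibitor neurofibromin to the membrane, was the steadiest gene of the set, with a 2.50-fold span over all libraries. It stood at 18.7, 20.9, 14.7 and 20.4 CPM in sgEzh2 + sgRunx1, at 27.3, 11.9 and 13.8 CPM in sgBcor + sgRunx1, at 19.4, 17.1 and 28.9 CPM in sgBcor + sgLuc, at 13.5, 14.3 and 12.7 CPM in sgEzh2 + sgLuc and at 14.1, 15.9 and 11.6 CPM in sgRunx1 + sgLuc. Levels in sgLuc ran from 11.8 to 18.6 CPM (median 14.6). All groups overlapped with sgLuc, and no comparison passed the threshold. Spred2 (ENSMUSG00000045671, chromosome 11, 19924375 to 20024026, plus strand), its paralogue, stood at 16.5, 13.1, 10.004 and 17.5 CPM in sgEzh2 + sgRunx1 and at 27.6, 14.2 and 35.9 CPM in sgBcor + sgRunx1. Among the singles, sgBcor + sgLuc libraries had 26.0, 27.3 and 35.7 CPM, sgEzh2 + sgLuc libraries 23.0, 20.2 and 29.4 CPM, and sgRunx1 + sgLuc libraries 22.3, 24.4 and 21.4 CPM. The sgLuc libraries ran from 16.2 to 21.4 CPM (median 19.7). The libraries of sgEzh2 + sgRunx1 lay below all libraries of the 3 single-gene groups and overlapped with sgBcor + sgRunx1 and sgLuc. Spred2 was called lower in sgEzh2 + sgRunx1 than in sgEzh2 + sgLuc (−0.76 on the log2 scale, SE 0.234, edgeR FDR 0.0375) and than in sgBcor + sgRunx1 (−0.86, SE 0.234, edgeR FDR 0.0309). The first call was kept in 3 of 7 omissions of a library, and it ended without replicate 1 (−0.79, edgeR FDR 0.0524) or 3 (−0.60, edgeR FDR 0.147) of sgEzh2 + sgLuc, or replicate 2 (−0.72, edgeR FDR 0.0954) or 3 (−0.62, edgeR FDR 0.0984) of sgEzh2 + sgRunx1. The second was kept in 4 of 8 omissions, and it ended without replicate 1 (−0.80, edgeR FDR 0.0723) or 3 (−0.57, edgeR FDR 0.200) of sgBcor + sgRunx1, or replicate 2 (−0.82, edgeR FDR 0.0716) or 3 (−0.72, edgeR FDR 0.0769) of sgEzh2 + sgRunx1. In fits to the compared groups alone both missed the threshold (−0.78, edgeR FDR 0.143, and −0.87, edgeR FDR 0.106).

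Etv5 (ENSMUSG00000013089, chromosome 16, 22381309 to 22439719, minus strand), a PEA3 transcription factor, stood at 3.80, 2.86, 2.87 and 5.66 CPM in sgEzh2 + sgRunx1 and at 9.62, 6.34 and 4.12 CPM in sgBcor + sgRunx1. In sgBcor + sgLuc it stood at 13.4, 10.3 and 12.7 CPM, in sgEzh2 + sgLuc at 7.98, 7.30 and 2.49 CPM, and in sgRunx1 + sgLuc at 7.81, 4.44 and 7.16 CPM. In sgLuc the range was 5.75 to 9.04 CPM (median 7.68). The libraries of sgBcor + sgLuc lay above all others, those of sgEzh2 + sgRunx1 lay below all sgLuc libraries, and the third library of sgEzh2 + sgLuc was the lowest of all. The 1 call was sgEzh2 + sgRunx1 against sgLuc (−1.004 on the log2 scale, SE 0.313, edgeR FDR 0.0468), and it was kept in 3 of 11 omissions of a library. It ended without sgEzh2 + sgRunx1 replicate 1 (−1.001, edgeR FDR 0.103), 2 (−0.89, edgeR FDR 0.142) or 3 (−0.89, edgeR FDR 0.147), and without sgLuc replicate 1, 3, 4, 5 or 6 (−1.04 to −0.95, edgeR FDR 0.0560 to 0.0851). It also ended with no filter on low counts (−0.995, edgeR FDR 0.0658), and with sgEzh2 + sgLuc replicate 3 left out of the fit it was −1.001 (edgeR FDR 0.00823). Etv4 (ENSMUSG00000017724, chromosome 11, 101769742 to 101785371, minus strand), its paralogue, had 0 to 50 counts and was at 0 in at least 1 library of every group. Only sgBcor + sgLuc replicate 3 (1.10 CPM), sgEzh2 + sgLuc replicate 3 (0.660 CPM) and sgLuc replicate 6 (0.286 CPM) exceeded 0.2 CPM, and no comparison passed the threshold.

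**Figure D5:**
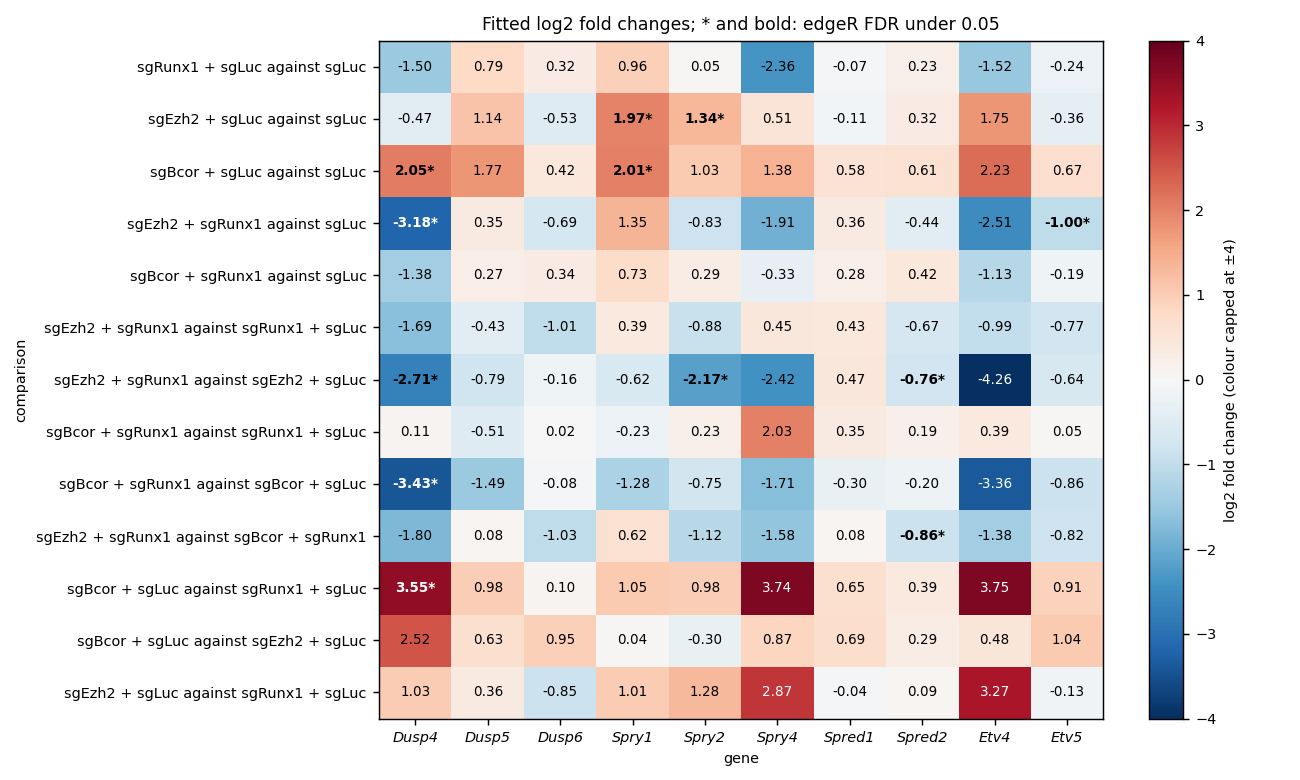
Fitted log2 fold changes of the 10 genes (x axis) in the 13 comparisons of groups (y axis; the group named first is set against the group named second), red where higher and blue where lower in the group named first. Bold values with an asterisk have edgeR FDR under 0.05, and the row of sgBcor + sgLuc against sgLuc is red for all 10 genes while that of sgBcor + sgRunx1 against sgBcor + sgLuc is blue for all 10.

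Against sgLuc, sgBcor + sgLuc was the group in which the set stood highest. All 10 genes had a positive log2 fold change, with a median of 1.21 against 0.00 over all 17659 genes tested, and 2 (Dusp4 and Spry1) were called higher, where 3.16% of all genes were called (1.97% higher). Spry4 and Etv4 passed the filter through their highest libraries, libraries of sgBcor + sgLuc among them. Their direction where sgBcor + sgLuc is compared is therefore not used as support. Both are still counted in the 10 and in the median of 1.21, at 1.38 (Spry4) and 2.23 (Etv4). The other genes ranged from 0.42 (Dusp6) to 2.05 (Dusp4). In 6 of the 10 (Dusp4, Dusp5, Spry1, Spry2, Spred2 and Etv5) every sgBcor + sgLuc library lay above every sgLuc library, against 7.8% of all genes. With sgEzh2 + sgLuc replicate 3 left out of the fit, 4 were called higher (Dusp4, Dusp5, Spry1 and Spry2), where 8.17% of all genes were called (4.55% higher). In sgEzh2 + sgLuc against sgLuc 2 were called higher (Spry1 and Spry2), where 8.25% of all genes were called (6.29% higher), and without the third library 0 were, where 1.05% of all genes were called. In sgRunx1 + sgLuc against sgLuc 0 of 10 were called, where 8.12% of all genes were, with 2 at an unadjusted p under 0.05 and 1 called by DESeq2 (Dusp4), which called 11.6% of all genes. The share of all genes at that unadjusted threshold is not given, here or below, so such counts are not read as an excess. With sgEzh2 + sgLuc replicate 3 left out, Spry1 was the 1 gene called, where 14.6% of all genes were.

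In the doubles the genes differed in both directions. Against sgLuc, 2 genes were called lower in sgEzh2 + sgRunx1 (Dusp4 and Etv5), where 10.1% of all genes were called (6.09% lower), and the median log2 fold change was −0.76 against 0.00 over all genes. Leaving sgEzh2 + sgLuc replicate 3 out of the fit, 4 were called lower (Dusp4, Dusp6, Spry2 and Etv5) and 1 higher (Spry1), where 17.4% of all genes were called (9.76% lower and 7.64% higher). In sgBcor + sgRunx1 0 of 10 were called, where 14.4% of all genes were, with 1 at an unadjusted p under 0.05 and 1 called by DESeq2 (Dusp4), which called 17.1% of all genes. The median log2 fold change was 0.28 against −0.02 over all genes. Leaving sgEzh2 + sgLuc replicate 3 out of the fit, 0 were called, where 22.7% of all genes were.

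Between the groups that share the Bcor guide, all fitted differences pointed the same way. In sgBcor + sgRunx1 against sgBcor + sgLuc 10 of 10 log2 fold changes were negative, with a median of −1.07 against −0.04 over all genes, and Dusp4 was the 1 gene called lower, where 12.2% of all genes were called (8.77% lower). In 6 (Dusp4, Dusp5, Spry1, Spry2, Spry4 and Etv5) every library of the double lay below every library of the single, against 17.6% of all genes. Spry4 and Etv4 passed the filter through their highest libraries, libraries of this single among them, and are not used as support. Both are still counted in the 10 of 10 and in the median, at −1.71 (Spry4) and −3.36 (Etv4). The other genes ranged from −3.43 (Dusp4) to −0.08 (Dusp6). With sgEzh2 + sgLuc replicate 3 left out, Spry1 was called as well (−1.28, edgeR FDR 0.0130), where 21.1% of all genes were called. Set against the single Runx1 group instead, sgBcor + sgRunx1 had 0 of 10 called, where 1.24% of all genes were, with 0 at an unadjusted p under 0.05 and 0 called by DESeq2, which called 4.61% of all genes. In sgEzh2 + sgRunx1 against sgEzh2 + sgLuc 3 were called lower (Dusp4, Spry2 and Spred2), where 12.6% of all genes were called (8.64% lower), and without the third library of sgEzh2 + sgLuc 3 were, now Dusp4, Spry2 and Etv5 (−1.003, edgeR FDR 0.0485), where 9.36% of all genes were called. In sgEzh2 + sgRunx1 against sgRunx1 + sgLuc 0 of 10 were called, where 0.187% of all genes were, with 5 at an unadjusted p under 0.05 and 0 called by DESeq2, which called 2.21% of all genes. The 0.187% is at the FDR threshold and is no measure for the 5. With sgEzh2 + sgLuc replicate 3 left out of the fit, Dusp6 was called lower, where 3.14% of all genes were called. The groups sgBcor + sgLuc and sgLuc serve in several of these comparisons, so their values are not independent of each other.

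Set against each other, the doubles differed in 1 call over all libraries. In sgEzh2 + sgRunx1 against sgBcor + sgRunx1 7 of 10 log2 fold changes were negative (median −0.94 against 0.02 over all genes), and Spred2 was the 1 gene called lower, where 7.05% of all genes were called (2.22% lower). Leaving out sgEzh2 + sgLuc replicate 3, 4 were called lower (Dusp4 at −1.79, edgeR FDR 0.0421, Dusp6, Spry2 at −1.12, edgeR FDR 0.00763, and Spred2), where 15.0% of all genes were called (6.37% lower). Between the singles, sgBcor + sgLuc had 10 of 10 positive log2 fold changes against sgRunx1 + sgLuc (median 0.98 against 0.04 over all genes), with Dusp4 called higher, where 4.75% of all genes were called (3.68% higher). In 8 of the 10, all but Dusp6 and Etv4 and with Spry4 among them, every sgBcor + sgLuc library lay above every sgRunx1 + sgLuc library, against 17.7% of all genes. Spry4 and Etv4 are not used as support here, since the filter kept them through their highest libraries, libraries of sgBcor + sgLuc among them. Both are still counted in the 10 of 10 and in the median, at 3.74 (Spry4) and 3.75 (Etv4). The other genes ranged from 0.10 (Dusp6) to 3.55 (Dusp4). Leaving out sgEzh2 + sgLuc replicate 3, Dusp4 and Spry2 were called, where 9.83% of all genes were. In sgBcor + sgLuc against sgEzh2 + sgLuc 0 were called, where 0.51% of all genes were, with 4 at an unadjusted p under 0.05 and 1 called by DESeq2 (Dusp4), which called 3.34% of all genes. The 0.51% is at the FDR threshold and is no measure for the 4. Without the third library of sgEzh2 + sgLuc, Spry1 was called (1.74, edgeR FDR 0.0445), where 0.798% of all genes were. In sgEzh2 + sgLuc against sgRunx1 + sgLuc 0 were called, where 15.1% of all genes were, with 3 at an unadjusted p under 0.05 and 1 called by DESeq2 (Spry2), which called 18.2% of all genes. The median log2 fold change there was 0.68 against 0.10 over all genes, with the third library of sgEzh2 + sgLuc included. Without it no gene of the set was called, where 9% of all genes were. The values were then 1.04 (Dusp4), −0.07 (Dusp5), −0.48 (Dusp6), −0.69 (Spry1) and 0.19 (Spry2). Those of the rest were 3.31 (Spry4), 0.001 (Spred1), −0.07 (Spred2), 1.32 (Etv4) and 0.24 (Etv5).

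In the other 10 comparisons of groups fewer of the 10 genes had libraries that did not overlap. Against sgLuc it was 3 in sgEzh2 + sgRunx1 (1 higher and 2 lower, where 16% of all genes did not overlap), 1 in sgBcor + sgRunx1 (higher, Spry1, against 19.6% of all genes), 0 in sgEzh2 + sgLuc (against 12.4%) and 2 in sgRunx1 + sgLuc (higher, against 21.2%). For sgEzh2 + sgRunx1 it was 3 against sgRunx1 + sgLuc (lower, against 23.1%), 4 against sgEzh2 + sgLuc (1 higher and 3 lower, against 23.5%) and 3 against sgBcor + sgRunx1 (1 higher and 2 lower, against 21.7%). It was 1 in sgBcor + sgRunx1 against sgRunx1 + sgLuc (higher, against 22.7%), 4 in sgBcor + sgLuc against sgEzh2 + sgLuc (higher, against 17.4%), and 3 in sgEzh2 + sgLuc against sgRunx1 + sgLuc (2 higher and 1 lower, against 33.9%).

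An interaction term tested whether a double departed from its singles added together on the log2 scale. Of the 10 genes 0 were called for sgEzh2 with sgRunx1, where 0.527% of all genes were, and 0 for sgBcor with sgRunx1, where 3.22% were. In each, 3 were at an unadjusted p under 0.05, a threshold at which the share of all genes is not given. In both interactions 9 of 10 values were negative, with medians of −1.11 and −0.71 against −0.01 and −0.02 over all genes. These counts and medians include Spry4 and Etv4, which passed the filter through few libraries. The lowest FDR was that of Spry2 for sgEzh2 with sgRunx1 (−2.22, 95% interval −3.40 to −1.05, edgeR FDR 0.0755), which DESeq2 called (FDR 0.0106) as 1 of the 10, where it called 3.24% of all genes. Without sgEzh2 + sgLuc replicate 3 it was −1.12 (edgeR FDR 0.159). For sgBcor with sgRunx1 DESeq2 called 2, Spry1 (FDR 0.0463) and Dusp5 (FDR 0.0482), where it called 7.22% of all genes, and edgeR called Spry1 without sgEzh2 + sgLuc replicate 3 in the fit (−2.23, edgeR FDR 0.00702), where 9.14% of all genes were called.

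Of 70 other genes of the pathway in 5 lists, 69 passed the filter: 14 of the RAS to ERK cascade, 16 adaptors and RAS regulators, 12 growth factor receptors, 16 other ERK-induced genes and 11 of 12 other phosphatases and feedback inhibitors. In sgBcor + sgLuc against sgLuc, where the ERK feedback genes stood highest, 1 of the 69 was called (1.45%, against 3.16% of all genes): Hras, which encodes a RAS GTPase, was lower, with 21.9 ± 1.04 CPM in sgBcor + sgLuc and 32.6 ± 1.32 CPM in sgLuc (log2 fold change −0.57, edgeR FDR 0.0152). With sgEzh2 + sgLuc replicate 3 left out, 4 of the 69 were called (5.8%, against 8.17% of all genes): Hras (−0.57, edgeR FDR 0.00698) and the cytokine receptor gene Il3ra (−0.79, edgeR FDR 0.0257) lower, and the adaptor gene Gab1 (1.43, edgeR FDR 0.0447) and the ERK-induced Fosl1 (2.78, edgeR FDR 0.0461) higher. Against sgLuc, 5 were called in sgEzh2 + sgRunx1 (3 higher and 2 lower; 7.25%, against 10.1% of all genes), 8 in sgBcor + sgRunx1 (2 higher and 6 lower; 11.6%, against 14.4%), 5 in sgEzh2 + sgLuc (4 higher and 1 lower; 7.25%, against 8.25%) and 6 in sgRunx1 + sgLuc (3 higher and 3 lower; 8.7%, against 8.12%). The same fit without that library called 12 in sgEzh2 + sgRunx1 (17.4%, against 17.4% of all genes), 16 in sgBcor + sgRunx1 (23.2%, against 22.7%) and 10 in sgRunx1 + sgLuc (14.5%, against 14.6%), and the 5 calls of sgEzh2 + sgLuc ended, where 1.05% of all genes were called. These shares are near those of all genes. Rasgrp1, a RAS activator of lymphocytes, was lower in all 3 groups with the Runx1 guide: it averaged 1.36 ± 0.628 CPM in sgEzh2 + sgRunx1, 0.553 ± 0.698 CPM in sgBcor + sgRunx1, 1.10 ± 0.534 CPM in sgRunx1 + sgLuc and 13.3 ± 5.28 CPM in sgLuc (log2 fold changes −3.27, −4.59 and −3.60, edgeR FDR at most 0.00347). Rasgrp3, a related activator of B cells, was lower in the same groups (−3.25, −4.31 and −2.67, edgeR FDR at most 0.0309), as were the B cell markers. Of these markers 10, 9 and 8 of 12 were called lower in these groups, where 6.09%, 9.69% and 5.36% of all genes were. Ksr1, a scaffold of the RAF, MEK and ERK kinases, was higher in them, with 56.4 ± 12.9 CPM in sgEzh2 + sgRunx1, 60.8 ± 8.58 CPM in sgBcor + sgRunx1, 54.6 ± 6.24 CPM in sgRunx1 + sgLuc and 33.4 ± 4.29 CPM in sgLuc (0.75, 0.86 and 0.71, edgeR FDR at most 0.00642). Epha4, an ephrin receptor, was higher in sgEzh2 + sgRunx1 (1.72 ± 0.973 CPM) than in sgLuc (0.274 ± 0.177 CPM; 2.64, edgeR FDR 0.00752). It was lower in sgBcor + sgRunx1 (0.00943 ± 0.0163 CPM) than in sgLuc (−4.53, edgeR FDR 0.00811).

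The doubles were set against their Polycomb singles for the same 69 genes. In sgBcor + sgRunx1 against sgBcor + sgLuc 9 were called (4 higher and 5 lower; 13%, against 12.2% of all genes), and in sgEzh2 + sgRunx1 against sgEzh2 + sgLuc 10 (4 higher and 6 lower; 14.5%, against 12.6%). Without the third library of sgEzh2 + sgLuc the counts were 18 (7 higher and 11 lower; 26.1%, against 21.1%) and 5 (3 higher and 2 lower; 7.25%, against 9.36%). Rasgrp1 was lower in both (−5.02 in the Bcor pair and −5.36 in the Ezh2 pair), as was Rasgrp3 (−3.47 and −4.24, edgeR FDR of all 4 values at most 0.0121), and both were called in the Ezh2 pair without that library too (−4.57 and −3.85, edgeR FDR at most 0.00421). Il3ra, a cytokine receptor subunit, was higher in sgBcor + sgRunx1 (106 ± 40.4 CPM) than in sgBcor + sgLuc (43.5 ± 4.56 CPM; 1.29, edgeR FDR 0.0135). Egr3, an ERK-induced transcription factor, was lower in sgEzh2 + sgRunx1 (0.839 ± 0.704 CPM) than in sgEzh2 + sgLuc (12.4 ± 17.6 CPM; −3.89, edgeR FDR 0.00382), where the SD of the single exceeds its mean, and without the third library of that group the value was −1.40 (edgeR FDR 0.128). It was also lower in sgBcor + sgRunx1 (0.258 ± 0.102 CPM) than in sgRunx1 + sgLuc (4.83 ± 1.07 CPM; −4.22, edgeR FDR 0.0371), and both interactions were called negative for it (−5.03, edgeR FDR 0.0355, with sgEzh2, and −4.42, edgeR FDR 0.0413, with sgBcor). Without that library the first was −2.55 (edgeR FDR 0.0968) and the second −4.42 (edgeR FDR 0.00332). Dusp8, a phosphatase of other MAP kinases, was at 0 in all 3 libraries of sgBcor + sgRunx1 and averaged 0.359 ± 0.122 CPM in sgBcor + sgLuc (edgeR FDR 0.00846).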

How the data were processed

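The authors deposited 2 tables, read counts per gene and FPKM, for 47069 Ensembl genes in 22 libraries of whole marrow RNA. The tools named in the submitters' processing notes are fastp, HISAT2 and HTSeq, and the build is mm9. The sources used here give no versions, no options, no annotation and no strand setting, so the reads of overlapping genes cannot be told apart. The deposited counts are whole numbers with no normalization. The deposited FPKM values equal count over library total and 1 length per gene in 14383 of 14383 genes with a read in every library (relative tolerance 1e-06), and were used to compare levels between genes. Groups come from sample titles, as does the replicate number, which differs from the description's in 4 libraries. The labels do not say that the libraries of a group came from separate animals, and p-values then measure only the spread between these libraries, which may be technical.

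The tests used edgeR 4.0.16 in R 4.3.3. The filter filterByExpr (minimum count 10) left 17659 genes, 10 of 10 ERK feedback genes among them, Spry4 and Etv4 through the few libraries in which they were highest. Libraries were scaled by TMM, and 1 quasi-likelihood model (robust) with a mean per group was fitted to all libraries (16 residual degrees of freedom). Calls are at an FDR under 0.05 (Benjamini-Hochberg, over every gene tested in that comparison). The SE is approximate, the absolute log2 fold change over the square root of F, and 95% intervals follow from it. CPM are TMM-scaled. Alternatives were RLE size factors, no filter, the replicate number as a block, fits to the compared groups alone, DESeq2 1.42.0 and leaving out each library. The test was checked on simulated counts. No pair of libraries of a group had identical counts.

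The genes, the 5 pathway lists and the marker lists were chosen with earlier results of these data known. All 10 genes are named. Of the other pathway genes, those named are among the 4 called genes of lowest p of a comparison; Gab1 and Fosl1 were named after their values were seen. Gene positions are of GENCODE M21 (GRCm38), a later build than mm9, and promoter windows of RefSeq (GRCm38.p6); none was converted.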

Additional observations from a re-analysis of the deposited data

Results flagged for a closer look

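Of the 20 sets of values examined, in groups of 4 or 6 libraries, 1 held a library far from the rest of its group: Etv4 in sgLuc replicate 6, at 0.286 CPM, with a gap to the next library of 0.668 of the range of the group. The other 5 libraries of sgLuc stood at 0 to 0.0948 CPM. Chance flags about 1 in 20 such groups.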

How the results depend on the processing

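The number of ERK feedback genes called was recomputed 228 times under the alternative settings, and 167 of these counts were within 1.5 times the reported one. RLE size factors changed no count. In DESeq2 the count against sgLuc was 1 for sgRunx1 + sgLuc (11.6% of all genes were called), 1 for sgBcor + sgRunx1 (17.1%), 3 for sgEzh2 + sgRunx1 (12.5%) and 3 for sgBcor + sgLuc (6.62%). It was 3 for sgEzh2 + sgRunx1 against sgBcor + sgRunx1 (11.1%) and 2 for sgBcor + sgLuc against sgRunx1 + sgLuc (8.09%). It was 1 for sgBcor + sgLuc against sgEzh2 + sgLuc (3.34%) and 1 for sgEzh2 + sgLuc against sgRunx1 + sgLuc (18.2%). For the interactions of sgEzh2 and of sgBcor with sgRunx1 it was 1 (3.24%) and 2 (7.22%). With no filter it was 1 for sgEzh2 + sgRunx1 (5.05% of all genes) and 1 for sgEzh2 + sgLuc (3.7%) against sgLuc. In fits to the compared groups alone it was 4 for sgBcor + sgLuc (7.32% of all genes were called) and 0 for sgEzh2 + sgLuc (0.619%) against sgLuc, 3 for sgEzh2 + sgRunx1 against sgRunx1 + sgLuc (10.3%), 1 against sgEzh2 + sgLuc (3.6%) and 2 against sgBcor + sgRunx1 (8.4%), 5 for sgBcor + sgLuc against sgRunx1 + sgLuc (12.6%), and 1 for the interaction of sgBcor and sgRunx1 (6.34%). Spry4, kept by the filter through its highest libraries, is 1 of the 5, 1 of the 2 in DESeq2 and 1 of the 3 without sgEzh2 + sgLuc replicate 3 for sgBcor + sgLuc against sgRunx1 + sgLuc. The cause was not tested.

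Leaving out 1 library gave 0 to 1 calls for sgRunx1 + sgLuc, 0 to 2 for sgEzh2 + sgLuc, 0 to 4 for sgBcor + sgLuc, 1 to 5 for sgEzh2 + sgRunx1 and 0 to 1 for sgBcor + sgRunx1 against sgLuc. It gave 0 to 1 for sgEzh2 + sgRunx1 against sgRunx1 + sgLuc, 2 to 3 against sgEzh2 + sgLuc and 0 to 4 against sgBcor + sgRunx1. It gave 0 for sgBcor + sgRunx1 against sgRunx1 + sgLuc, 1 to 2 against sgBcor + sgLuc, 1 to 3 for sgBcor + sgLuc against sgRunx1 + sgLuc, 0 to 1 against sgEzh2 + sgLuc, 0 to 1 for sgEzh2 + sgLuc against sgRunx1 + sgLuc, and 0 to 1 for each interaction. Where a group of 3 lost a library, the pooled estimate of spread was used. Against sgLuc, the 4 for sgBcor + sgLuc and the 5 for sgEzh2 + sgRunx1 came without sgEzh2 + sgLuc replicate 3. That fit called 8.17% and 17.4% of all genes there. The 4 against sgBcor + sgRunx1 came from the same fit, where 15% of all genes were called. The shares under the other omissions are not given, so these ranges are not read as an excess. Signs of the 150 fold changes and interactions were the same under RLE, no filter and DESeq2, in 140 without sgEzh2 + sgLuc replicate 3 and in 144 with the replicate block.

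The replicate numbers of the titles gave no sign of pairing: over 46 pairs of libraries with the same number in different groups, the correlation of deviations from the group means ran from −0.151 to 0.147 (median 0.011), and 3 exceeded 0.1. Nor did those of the descriptions, which differ in 4 libraries and were tried after seeing the data (43 pairs, −0.115 to 0.147, median 0.021, 4 above 0.1). The correlations used the 2000 genes that varied most within groups, a choice that 1 library standing apart can dominate, so they cannot exclude pairing. With the replicate block the count against sgLuc was 0 for sgBcor + sgLuc (0.838% of all genes were called) and 0 for sgEzh2 + sgLuc (0.866%). For sgEzh2 + sgRunx1 it was 1 against sgLuc (4.97%), 2 against sgEzh2 + sgLuc (8.26%) and 0 against sgBcor + sgRunx1 (4.4%). With this block 5 of the 12 calls passed. Blocking by the numbers of the descriptions gave 0, 0, 1, 3 and 0 in the same comparisons, and 6 of the 12 calls passed. Of all genes 0.923%, 1.08%, 5.27%, 9.5% and 4.73% were called there.

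Depth limits Spry4 and Etv4 most, with at most 27 and 50 counts.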

Other observations

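The genes whose CPM followed an ERK feedback gene most closely over the 22 libraries were sought for the 4 genes called against sgLuc. The search covered 10023 genes that averaged 4 CPM or more. It passed over the ERK feedback genes, predicted genes, pseudogenes, and immunoglobulin and T cell receptor genes, so closer genes among those would not be named. These Spearman correlations are descriptions across libraries that share group means, depth and cell mixture. For Dusp4 they were Foxp4, a forkhead transcription factor (rho 0.901, and 0.938 without sgEzh2 + sgLuc replicate 3), Pcmtd1 (0.876 and 0.874) and Socs2, an inhibitor of cytokine receptor signalling (0.872 and 0.877). For Spry1 they were Ythdc1, a reader of methylated RNA (0.843 and 0.819), Hnrnpu (0.823 and 0.796) and Nr4a2, an orphan nuclear receptor (0.815 and 0.794). For Spry2 they were Sept1 (0.807 and 0.778), Ggnbp1 (0.802 and 0.777) and Fmnl3 (0.796 and 0.765), and for Etv5 Vps37b (0.839 and 0.860), Tmem8 (0.833 and 0.809) and Acsl1 (0.825 and 0.799).

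Within the set the patterns were not uniform. Dusp4 ran with Spry2 (rho 0.684, and 0.703 without sgEzh2 + sgLuc replicate 3) and Etv5 (0.632 and 0.727), but not with Spry1 (−0.047 and −0.088) or Spred1 (−0.041 and −0.022). Spry1, which was low in sgLuc, ran most with Dusp5 (0.573 and 0.513).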
